A study of Saccharomyces cerevisiae with 24 samples.

Results

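The comparison described here set a *med20Δ* strain of *Saccharomyces cerevisiae* against its wild-type parent after both had passed the diauxic shift, on 2 dye-reversed two-color arrays out of 24 arrays in the series. The arrays were chosen by their titles, which name *med20*, wild-type and the diauxic shift. The *med20Δ* strain carries a *kanR* marker in place of *MED20* and is otherwise isogenic with the wild-type strain BY4741 (*MATa ura3Δ0 leu2Δ0 his3Δ1 met15Δ0*), so that the *ura3*, *leu2*, *his3* and *met15* alleles are shared by both. For the post-diauxic group, each strain was diluted in YPD to an OD600 of 0.01 and held at 30°C for 48 hours before poly(A)+ RNA was purified. *med20Δ* RNA carried Cy3 and wild-type RNA Cy5 on the array of replicate 1, and the dyes were exchanged on that of replicate 2. The untreated arrays, used for comparison, hold the same strains from growing YPD cultures. Both strains were also compared after rapamycin (0.2 µg/ml, 1 hour), chlorpromazine (1 hour, with a dose that the sources give in different units), tunicamycin (2.5 µg/ml, 90 minutes), hydrogen peroxide (0.32 mM, 30 minutes) or a move from 29 to 39°C (20 minutes).

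Med20 (Srb2) is a non-essential subunit of the head module of Mediator, the complex that links transcription factors to RNA polymerase II. At the diauxic shift, yeast cells that have used up glucose change from fermentation to respiration of the ethanol they made. They lower the transcription of ribosomal protein (RP) genes and raise genes of respiration, gluconeogenesis, reserve carbohydrates and stress protection. The study asked whether Med20 acts in RP gene repression in general or under particular conditions, and this comparison addresses it in post-diauxic cells.

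All values below are log2 ratios of *med20Δ* to wild-type unless another quantity is named, given as the mean of the pair with replicate 1 and replicate 2 in parentheses. The sources do not say whether the arrays of a pair hold RNA of separate cultures, so each pair was counted as 1 replicate and no test across samples was made. A gene was called higher or lower at 2-fold or more on the mean, which is the threshold of the study's methods. Of the spotted ORFs, 5716 gave a ratio on both arrays. The authors' flags removed 555 and 584 ORF spots, and these include all 396 ORF spots of a single printing grid. Median net intensities were 410.0 and 592.0 in the *med20Δ* channels and 248.0 and 507.0 in the wild-type channels, and 94.9% to 96.0% of ORF spots were brighter than the 95th percentile of the spots with no gene name. Across genes the ratios of the arrays correlated with r = 0.346, and when genes were divided by brightness into 4 equal bins, from dim to bright, with r = 0.057, 0.162, 0.383 and 0.494. Ratios of dim genes were thus hardly repeated between the arrays. The median over all genes was -0.01, and the medians of the 32 chromosome arms lay between -0.12 and 0.06.

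The deleted gene was lower on both arrays, as were 27.9% of all genes. On each array the difference was smaller than 0.403, the SD of single genes between the arrays. That SD is for the ratio on 1 array, and the spread of a pair mean is smaller. The *MED20* spot (YHR041C) had log2 intensities of 8.18 and 8.91 in *med20Δ* and 8.50 and 9.20 in wild-type, and its ratio was -0.31 (-0.32, -0.30). The spot exceeded the unnamed spots in all 4 channels, so that its signal in *med20Δ* was not at background. The corresponding ratio in untreated cells was -0.83. Of its chromosomal neighbors, *BCD1*, which acts in the assembly of box C/D snoRNPs, was at -0.82 (-0.13, -1.51) and *NCP1*, the NADPH-cytochrome P450 reductase, at 0.01 (0.51, -0.49). Among genes with a deletion allele that both strains share, *HIS3* was at 0.77 (0.66, 0.89), *URA3* at 0.44 (0.21, 0.67) and *MET17* (*MET15*) at 0.04 (0.01, 0.06). The *MET17* spot was not above the unnamed spots in wild-type on either array, and *LEU2* gave no ratio because of flags.

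The labeled growth state was examined in each strain with single-channel log2 intensities, as post-diauxic minus untreated values of the channels of the same strain and dye. Intensities were scaled between arrays so that the median difference over 5670 genes was near 0. The differences are therefore relative to the average gene, as no outside standard was used. Of 17 marker genes of post-diauxic cells with values on all arrays, 15 were higher on both arrays in *med20Δ* and 14 in wild-type, against 38.3% of all genes in either strain. Their median difference was 3.07 and 3.14 in *med20Δ*, against 3.65 and 4.31 in wild-type. *SPG4*, a gene of stationary-phase survival, differed by 6.88 and 6.86 in *med20Δ* and by 7.12 and 7.49 in wild-type. *HXT5*, a hexose transporter made at slow growth, differed by 3.88 and 4.58 in *med20Δ* and by 4.85 and 5.97 in wild-type. *ADH2*, the alcohol dehydrogenase that oxidizes ethanol, and *ICL1*, isocitrate lyase, are also markers of this state and did not follow it. *ADH2* differed by 0.29 and 0.39 in *med20Δ* and by -0.03 and 0.13 in wild-type, and *ICL1* by 0.56 and -0.46 in *med20Δ* and by 0.35 and -1.47 in wild-type. A further marker was lower on both arrays in wild-type, as were 38.6% of all genes, and no marker was in *med20Δ*. Between the strains, 9 of all 18 markers were lower in *med20Δ* by 2-fold or more, against 1.98% of all genes. The median ratio of the markers was -1.02 (-0.78, -1.06). These 9 are also members of the general stress, stationary-phase, gluconeogenesis or hexose transport lists below, so the counts of those lists are not separate results. The cultures were measured in bulk, so fewer cells in a state and less RNA per cell cannot be told apart, and the part of a different progress of the strains through the shift by the time of harvest was not tested.

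RP mRNAs were lower after the shift in both strains. The median difference over 126 RP genes was -1.23 and -1.51 in *med20Δ*, against -1.89 and -1.56 in wild-type, and 115 genes in *med20Δ* and 121 in wild-type were lower on both arrays, against 38.5% of all genes in *med20Δ* and 38.6% in wild-type. *Ribi* genes, which encode ribosome biogenesis factors, had medians of -0.66 and -0.86 in *med20Δ* and of -0.76 and -0.77 in wild-type. Without scaling between arrays the all-gene median was 0.75 in *med20Δ* and 0.73 in wild-type. The *Ribi* medians of the pair means then took the opposite sign, at 0.14 in *med20Δ* and 0.17 in wild-type, while the RP medians stayed below 0, at -1.07 in *med20Δ* and -1.41 in wild-type. Genes of oxidative phosphorylation were higher after the shift by similar amounts, with medians of 1.83 and 1.55 in *med20Δ* and of 1.52 and 1.58 in wild-type. The strains lay further apart in the HSP70 and HSP90 chaperone list, whose median difference was 0.36 and 0.08 in *med20Δ*, against 1.13 and 1.35 in wild-type. With each channel centered on its own median the pair means gave -0.32 in *med20Δ*, so the direction in that strain depends on the scaling, and 0.79 in wild-type.

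**Figure D1:**
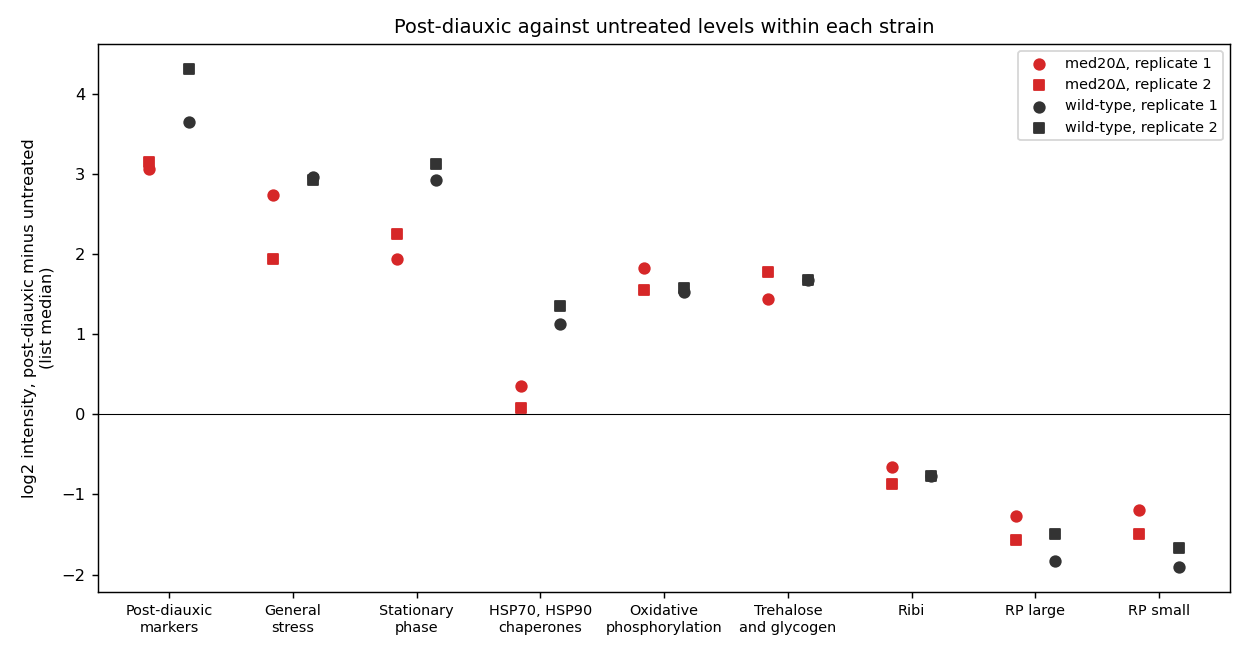
List medians of the log2 intensity difference between post-diauxic and untreated cells, within *med20Δ* (red) and wild-type (black), for replicate 1 (circles) and replicate 2 (squares). Post-diauxic markers are above 3 in every channel and RP genes below -1, and the chaperone list is at 0.36 and 0.08 in *med20Δ* and above 1 in wild-type.

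At the 2-fold threshold, 51 of 5716 genes (0.892%) counted as higher in post-diauxic *med20Δ* cells and 113 (1.98%) as lower. Of these, 50 of the higher and 112 of the lower genes had the same direction on both arrays, the exceptions being *TOM6* (2.57, -0.15) and *STI1* (0.00, -2.01). A 2-fold ratio on each of the arrays was found for 19 genes (0.332%) that were higher and 59 (1.03%) that were lower. In all 164 called genes the brighter channel was above the unnamed spots on both arrays, and only *FRE7*, which is higher in *med20Δ*, was not above them in the other channel. Of the lower genes, 82 were in the brightest bin of genes and 1 in the dimmest.

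**Figure D2:**
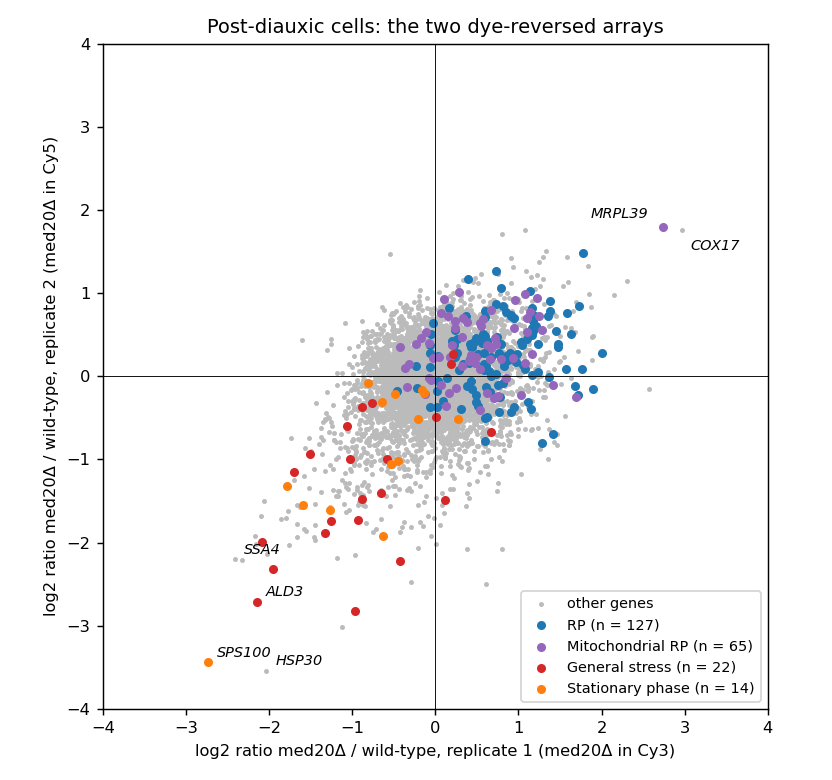
Log2 ratio of *med20Δ* to wild-type for each gene on replicate 1 (horizontal axis) and replicate 2 (vertical axis), with RP, mitochondrial RP, general stress and stationary-phase genes colored. General stress and stationary-phase genes extend toward *SPS100* at -2.74 and -3.44, and RP genes lie mostly above 0 on replicate 1 and nearer to 0 on replicate 2.

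The lower genes were led by genes of starved and stressed cells. *SPS100*, a cell wall glycoprotein gene of sporulating and stationary cells, had the lowest ratio of all genes. Its log2 intensities were 10.31 and 11.05 in *med20Δ*, against 13.05 and 14.49 in wild-type, and its ratio was -3.09 (-2.74, -3.44), or 8.51-fold lower. After the shift it was higher than in untreated cells by 2.37 and 2.72 in *med20Δ* and by 5.02 and 5.74 in wild-type. *HSP30*, a stress-induced plasma membrane protein gene, had log2 intensities of 11.29 and 11.28 in *med20Δ*, against 13.32 and 14.82 in wild-type, with a ratio of -2.79 (-2.03, -3.54). *ALD3*, a stress-induced aldehyde dehydrogenase, was at -2.43 (-2.15, -2.71). In these genes every *med20Δ* channel was below both wild-type channels.

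*SSA4*, the stress-induced cytosolic HSP70, had log2 intensities of 11.15 and 11.45 in *med20Δ*, against 13.56 and 13.65 in wild-type, at a ratio of -2.31 (-2.41, -2.20). *HSP26*, a small heat shock protein, had 13.28 and 13.79 in *med20Δ*, against 15.36 and 15.79 in wild-type, at -2.04 (-2.08, -2.00). In both genes the arrays differed little and the strains did not overlap. *BTN2*, which sorts misfolded proteins, was at -2.07 (-1.12, -3.02), and *CTT1*, cytosolic catalase, at -1.89 (-0.96, -2.82), so these were lower on both arrays with a size that differed between them.

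The other genes among the 15 lowest come from metabolism, translation and less known functions. *GLK1*, glucokinase, was at -2.04 (-2.17, -1.92) and *GND2*, the minor 6-phosphogluconate dehydrogenase, at -2.08 (-2.03, -2.13). *GCN3*, the alpha subunit of the translation factor eIF2B, was at -1.89 (-2.10, -1.68), and its log2 intensities were 9.71 and 10.72 in *med20Δ*, against 11.82 and 12.40 in wild-type. *GCN3* was the only gene of 31 translation factors that was lower by 2-fold. *SHH3*, a homolog of the succinate dehydrogenase subunit Sdh3, was at -1.80 (-1.66, -1.94). *GRE1*, a gene of the osmotic stress response, was at -2.14 (-1.96, -2.32), and *HBT1*, which acts in cell shape during mating, at -1.90 (-1.76, -2.03). *YNL195C* was at -2.27 (-2.33, -2.21) and the ORF *YBR116C* at -2.08 (-2.16, -2.01).

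Of the genes that were lower by 2-fold, 109 had growth-state values. In wild-type, 102 of them were higher after the shift on both arrays and 88 by 2-fold or more on both, against 38.3% and 9.22% of all 5670 genes. In *med20Δ*, 89 of the 109 were also higher on both arrays. The wild-type channel of the post-diauxic arrays enters both quantities, so the wild-type counts are not independent of the call.

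**Figure D3:**
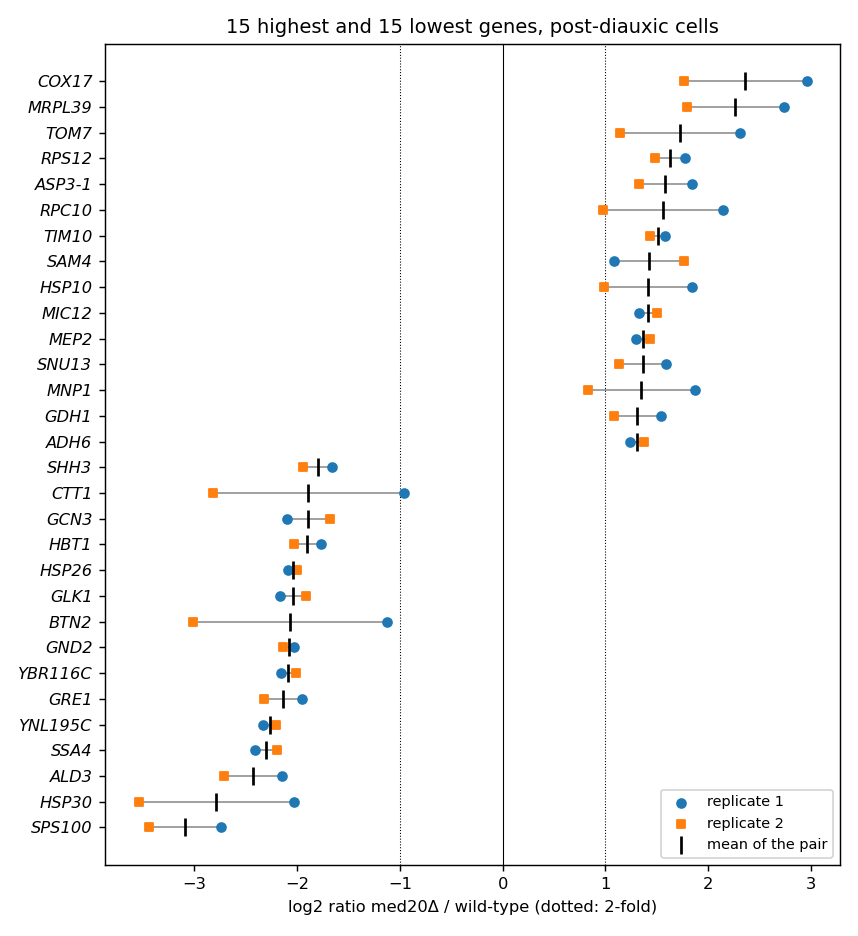
Log2 ratio of *med20Δ* to wild-type of the 15 highest and 15 lowest genes that were 2-fold on the mean and had the same direction on both arrays, for replicate 1 (circles), replicate 2 (squares) and the mean (bars). *BTN2* and *CTT1* have the widest gaps between arrays among the lower genes, and most of the higher genes have their larger ratio on replicate 1.

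As a list, general stress genes, which many stresses induce through the Msn2 and Msn4 factors, were lower in *med20Δ*. Of 22 measured, 13 were lower by 2-fold and none was higher, 17 were below 0 on both arrays and 2 above 0 on both. Their median was -1.10 (-0.91, -1.27). Over all genes measured, 27.9% were below 0 on both arrays and 28.1% above 0 on both, so these are the shares against which list counts are read. Besides *ALD3*, *GRE1*, *HSP26* and *CTT1*, the lower members include *DDR48*, a DNA damage-responsive gene, at -1.61 (-1.33, -1.89). Of 14 stationary-phase genes, 5 were lower by 2-fold, 13 were below 0 on both arrays and none was above 0 on both, with a median of -0.60 (-0.58, -0.77). They include *SPG1* at -1.57 (-1.59, -1.55), *SPG3* at -1.55 (-1.78, -1.32) and *YGP1*, a secreted glycoprotein gene related to *SPS100*, at -1.44 (-1.26, -1.61). *SPS100* itself and *SSA3*, an HSP70 gene, are the remaining lower members.

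Chaperone genes were spread widely. Of 23 genes of the HSP70 and HSP90 systems, 6 were lower by 2-fold and 1 was higher, with a median of -0.38 (0.00, -0.69) that came from replicate 2. The lower genes were *SSA4*, *BTN2*, *SSE2*, *HSP104*, *FES1* and *STI1*. HSP70 genes placed in other lists, such as *SSA3* and *KAR2*, are not in these counts. *SSE2*, an HSP110 nucleotide exchange factor, was at -1.62 (-1.45, -1.79) and *HSP104*, the disaggregase, at -1.49 (-1.45, -1.54). *HSP10*, the mitochondrial co-chaperonin, was higher, with log2 intensities of 13.44 and 13.37 in *med20Δ*, against 11.59 and 12.38 in wild-type, and a ratio of 1.42 (1.85, 0.99). Of 14 ER folding genes only *KAR2*, the HSP70 of the ER lumen, was lower by 2-fold, at -1.60 (-1.64, -1.57), and the list median was 0.05 (0.28, -0.16). *YRO2*, a membrane protein gene related to *HSP30*, was at -1.61 (-1.66, -1.55), while *MRH1*, the remaining member of that family, was at 0.11 (0.38, -0.15). *HSP31* and its close homologs *HSP32*, *HSP33* and *SNO4* were lower by 2-fold, at -1.39 to -1.07. The last 3 are nearly identical in sequence and their spots may share target, and this list was added after values had been seen.

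Carbon metabolism differed by branch. Of 18 genes of glycolysis and fermentation, 5 were lower by 2-fold, none was higher and 12 were below 0 on both arrays, with a median of -0.65 (-0.54, -0.73). After *GLK1* the lowest were *PDC6*, a minor pyruvate decarboxylase, at -1.22 (-0.92, -1.52), *FBA1*, aldolase, at -1.17 (-0.88, -1.46), and the glyceraldehyde-3-phosphate dehydrogenase gene *TDH3* at -1.06 (-0.81, -1.30). The *TDH* genes are close copies and can share signal. When each gene's dye effect, estimated on the other comparisons, was taken off, the glycolysis medians of the arrays were -0.19 and -1.13.

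Of 19 genes of trehalose and glycogen metabolism, 4 were lower by 2-fold and 12 were below 0 on both arrays, with a median of -0.40 (-0.31, -0.50). These were *UGP1*, which makes UDP-glucose, at -1.36 (-1.08, -1.64), *TPS2*, trehalose-6-phosphate phosphatase, at -1.20 (-1.05, -1.35), *PGM2*, phosphoglucomutase, at -1.16 (-1.04, -1.28), and *GSY2*, glycogen synthase, at -1.02 (-1.04, -0.99). Of 20 genes of ethanol and acetate use and gluconeogenesis, 3 were lower by 2-fold and 12 were below 0 on both arrays, with a median of -0.46 (-0.26, -0.66). *FBP1*, fructose-1,6-bisphosphatase, was at -1.30 (-0.83, -1.77), *REG2*, a regulator of the Glc7 phosphatase, at -1.20 (-1.50, -0.90), and *PCK1*, phosphoenolpyruvate carboxykinase, at -1.07 (-0.82, -1.33). *MLS1*, malate synthase, was at -0.97 (-0.83, -1.11). Of 20 hexose transporters and sensors, *HXT5* at -1.14 (-0.94, -1.33) and *HXT8* at -1.01 (-0.99, -1.03) were lower by 2-fold, and the list median was -0.28 (-0.32, -0.44).

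Of 15 regulators of the diauxic shift, none reached 2-fold and 7 were below 0 on both arrays. The transcription factor genes *GIS1* at -0.89 (-0.85, -0.92), *SIP4* at -0.86 (-0.87, -0.86) and *ADR1* at -0.71 (-0.72, -0.70) had closely repeated ratios. Gis1 acts on post-diauxic shift elements, Sip4 on gluconeogenic genes and Adr1 on genes of ethanol and fatty acid use.

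The genes that were higher by 2-fold were led by genes of mitochondrial biogenesis. *COX17*, the copper chaperone of cytochrome oxidase, had log2 intensities of 11.04 and 11.12 in *med20Δ*, against 8.07 and 9.36 in wild-type, and a ratio of 2.36 (2.96, 1.76), or 5.15-fold. *MRPL39*, a mitochondrial ribosomal protein gene, had 10.83 and 11.22 in *med20Δ*, against 8.09 and 9.42 in wild-type, at 2.27 (2.74, 1.79). *TOM7*, a subunit of the outer membrane translocase, was at 1.73 (2.31, 1.15) and *TIM10*, a chaperone of the intermembrane space, at 1.51 (1.58, 1.43). *MIC12*, a subunit of the MICOS complex of the inner membrane, was at 1.42 (1.33, 1.51), and *MNP1*, of the mitochondrial ribosome, at 1.35 (1.87, 0.83). For each of these genes both *med20Δ* channels were above both wild-type channels.

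Relative to untreated cells, *COX17* differed by 0.36 and -0.16 in *med20Δ* and by -1.17 and -0.28 in wild-type, and *MRPL39* by 0.39 and 0.42 in *med20Δ* and by -1.98 and -0.80 in wild-type. Of the 51 higher genes, 25 were below their untreated level on both arrays in *med20Δ*, where 38.5% of all genes were, and 42 in wild-type, where 38.6% of all genes were, on the same scaled intensities. As above, the post-diauxic channels enter both the call and this count.

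Of 65 mitochondrial RP genes, 3 were higher by 2-fold and none was lower, 41 were above 0 on both arrays and 4 below 0 on both, with a median of 0.41 (0.49, 0.34). After *MRPL39*, the highest of this list were *RSM19* at 1.08 (1.23, 0.94) and *MRPL27* at 1.04 (1.08, 1.00). *MNP1*, given above at 1.35, is not in this list and is not in its counts. Of 28 protein import genes, a list added after values had been seen, 5 were higher by 2-fold and 16 were above 0 on both arrays, with a median of 0.31 (0.51, 0.22). Besides *TOM7* and *TIM10*, these were *TIM8*, a partner of small Tim proteins, at 1.22 (1.66, 0.78), *PAM18*, a co-chaperone of the import motor, at 1.12 (0.93, 1.31), and *TOM6* at 1.21 (2.57, -0.15), whose ratio was above 0 on replicate 1 only.

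Of 17 cytochrome oxidase assembly genes, 2 were higher by 2-fold and the median was 0.37 (0.54, 0.33). *SCO1*, a copper donor to cytochrome oxidase, was at 1.08 (1.56, 0.60), and *COX19*, of the intermembrane space, at -0.81 (-0.64, -0.99). The 38 oxidative phosphorylation genes had a median of 0.19 (0.50, 0.04), with 1 gene, *ATP19*, higher by 2-fold at 1.11 (1.63, 0.59). The 11 TCA cycle genes had a median of 0.21 (0.42, -0.08). For these last 2 lists the shift was on replicate 1 and the median of replicate 2 was near 0.

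**Figure D4:**
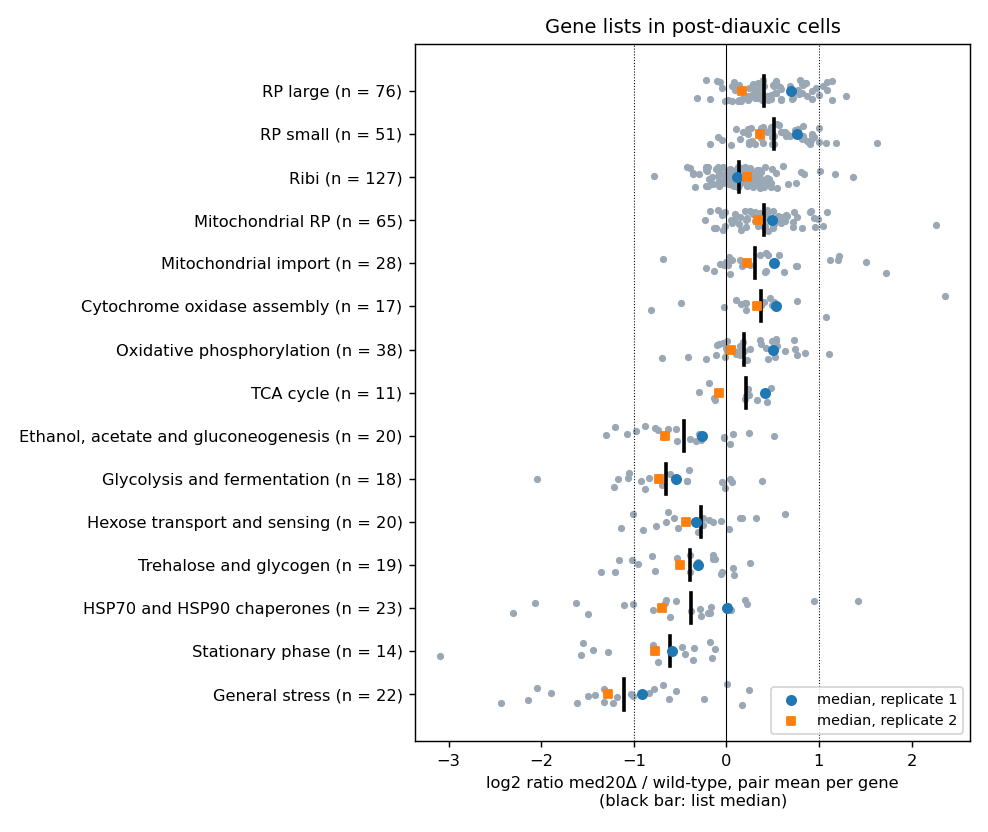
Log2 ratio of *med20Δ* to wild-type, as the pair mean, for each measured member of 15 gene lists (gray points), with the list median (black bar) and the medians of replicate 1 (circles) and replicate 2 (squares). Mitochondrial RP medians are 0.49 and 0.34 and general stress medians -0.91 and -1.27, while RP large medians are 0.70 and 0.17.

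RP genes were higher in *med20Δ* than in wild-type, by an amount that differed between the arrays. Of 127 measured, 9 were higher by 2-fold and none was lower, 86 were above 0 on both arrays and 3 below 0 on both. Their median was 0.48 (0.73, 0.27). On replicate 1, 118 were above 0, and on replicate 2, 92. The middle 50% of RP genes, between the quartiles, had mean ratios of 0.25 to 0.79. For 76 genes of the large subunit the median was 0.40 (0.70, 0.17), and for 51 of the small subunit it was 0.52 (0.76, 0.36). With the gene-wise dye effect of the other comparisons taken off, the RP medians of the arrays were 0.62 and 0.36.

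When the strain ratio of untreated cells is subtracted, which leaves the difference between the strains in the change from the untreated to the post-diauxic state, the RP median was 0.65 on replicate 1 and 0.07 on replicate 2. An RP difference beyond that of untreated cells was thus seen on replicate 1 and was not repeated on replicate 2. *RPS12*, of the small subunit, was the highest, with log2 intensities of 13.96 and 13.79 in *med20Δ*, against 12.19 and 12.30 in wild-type, at a ratio of 1.63 (1.78, 1.49). *RPP0*, the stalk base of the large subunit, was at 1.29 (1.73, 0.85), *RPS22A* at 1.18 (1.59, 0.77), *RPL26B* at 1.15 (2.01, 0.28) and *RPL37A* at 1.14 (1.38, 0.91). *RPL3* was at 0.86 (1.17, 0.55), with 11.70 and 11.78 in *med20Δ*, against 10.53 and 11.23 in wild-type, and *RPL28* at 0.40 (0.23, 0.56). Many RP genes have a near-identical paralog that shares target, so values of single copies are uncertain.

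Of 127 *Ribi* genes, 3 were higher by 2-fold and none was lower, 55 were above 0 on both arrays and 7 below 0 on both, with a median of 0.14 (0.12, 0.22). The 3 are core proteins of box C/D snoRNPs, *SNU13* at 1.36 (1.59, 1.14), *NOP58* at 1.17 (1.15, 1.20) and *NOP56* at 1.01 (1.40, 0.62). Genes of RNA polymerases I and III had a median of 0.09 (0.02, 0.14), and *RPC11*, a subunit of RNA polymerase III, was at 1.00 (1.16, 0.85). *RPC10*, a subunit shared by all nuclear RNA polymerases, is not in that list and was at 1.56 (2.15, 0.97). Of 18 aminoacyl-tRNA synthetases, *DED81* at 1.17 (1.26, 1.08) and *GUS1* at 1.03 (1.16, 0.91) were higher by 2-fold, and the median was 0.24 (0.22, 0.29). Of 8 regulators of RP transcription none reached 2-fold, with *FHL1* at -0.38 (-0.29, -0.46) and *HMO1* at 0.35 (0.39, 0.31).

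The other genes among the 15 highest act mainly in nitrogen and sulfur metabolism. *MEP2*, the high-affinity ammonium permease, had log2 intensities of 10.59 and 11.57 in *med20Δ*, against 9.29 and 10.14 in wild-type, at 1.37 (1.30, 1.43). It was above its untreated level by 3.13 and 3.71 in *med20Δ* and by 1.89 and 2.26 in wild-type. *GDH1*, the glutamate dehydrogenase that assimilates ammonium, was at 1.31 (1.54, 1.08), *SAM4*, an S-adenosylmethionine-homocysteine methyltransferase, at 1.42 (1.08, 1.76), and *ADH6*, an NADPH-dependent alcohol dehydrogenase, at 1.31 (1.24, 1.38). *ASP3-1*, an asparaginase gene with near-identical tandem copies, was at 1.58 (1.84, 1.33). As lists, the 22 genes of nitrogen catabolite repression had a median of 0.00 (-0.01, 0.06), and the 44 of other amino acid biosynthesis 0.14 (0.16, 0.13), each with 1 member higher by 2-fold.

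Of 50 higher genes with a gene length in the R64 table, 28 (56.0%) were shorter than 600 bp, against 22 of 108 lower genes (20.4%) and 860 of 5270 genes measured (16.3%). Outside the RP genes, the median ratio was 0.06 for genes under 300 bp and -0.06 for those of 2400 bp or more. The part of length in these ratios was not tested.

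All Mediator genes with a ratio on both arrays, *MED20* included, were under 2-fold, and *SRB5* had none because of flags. The farthest from 0 were *MED2* at -0.54 (-0.94, -0.14) and *GAL11* (*MED15*) at -0.46 (-0.26, -0.67), both of the tail module, and *ROX3* (*MED19*) of the head at -0.53 (-0.87, -0.18). *SIN4* (*MED16*) was at -0.40 (-0.20, -0.59), and *SSN8*, which encodes cyclin C, at 0.20 (0.33, 0.09). The 31 proteasome genes had a median of -0.19 (-0.13, -0.29) with 1 member, *RPT1*, lower by 2-fold, and the 16 of autophagy and the vacuole -0.30 (-0.21, -0.22), with *PAI3*, a proteinase inhibitor, at -1.07 (-1.03, -1.11) and *ATG1*, the kinase that starts autophagy, at -1.06 (-1.35, -0.76). *CUP1-1* and *CUP1-2*, tandem copies of the copper metallothionein gene that cannot be told apart on these arrays, were at -1.72 (-1.66, -1.77) and -1.69 (-1.46, -1.93), and *RSC30*, which neighbors them, was at -1.70 (-1.77, -1.62). Of 22 cell cycle genes the only members past 2-fold were *CTS1*, an endochitinase of cell separation, at -1.28 (-1.46, -1.11), and *EGT2*, which also acts in cell separation, at -1.16 (-0.91, -1.41). *SOD1*, the cytosolic copper-zinc superoxide dismutase, was the only 1 of 21 genes of the antioxidant list past 2-fold, at -1.19 (-1.09, -1.29). The catalase gene *CTT1*, given above as lower, is in the general stress list and is not among the 21. Of 33 sterol and lipid genes, *ERG9*, squalene synthase, was lower at -1.42 (-1.27, -1.58) and *CHO2*, of phosphatidylcholine synthesis, higher at 1.04 (1.89, 0.20). Of 6 **a**-specific genes, which mark the mating type of both strains, none was 2-fold, and the median was -0.47 (-0.19, -0.62). The lowest was *MFA2*, a pheromone gene, at -0.91 (-0.49, -1.32).

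Post-diauxic ratios were set beside those of the strains under the 6 other conditions, which are on other arrays. The post-diauxic mean ratio correlated across genes with r = 0.488 for chlorpromazine, 0.468 for tunicamycin, 0.467 for rapamycin, 0.294 for untreated cells, 0.256 for heat and -0.042 for hydrogen peroxide, over 5626 to 5695 genes. These are descriptions, since genes are not independent and array effects can be shared. Of the 109 to 113 lower genes measured in the other condition too, 35 were also lower by 2-fold after heat, where 2.01% of all genes were. The count was 33 with chlorpromazine (2.16% of all genes), 23 with rapamycin (1.81%), 15 with tunicamycin (0.743%), 12 in untreated cells (0.683%) and 4 with hydrogen peroxide (1.54%). With hydrogen peroxide 27 of them were higher by 2-fold, as were 2.83% of all genes, and after heat 9 were, against 0.823%. Of the 49 to 51 higher genes measured in the other condition too, 17 were also higher by 2-fold with rapamycin (121 of all 5747 genes). The count was 16 with tunicamycin (105 of 5653), 12 with chlorpromazine (65 of 5694) and 6 with hydrogen peroxide (162 of 5732). It was 5 after heat (47 of 5709) and 4 in untreated cells (14 of 5714), among them *HSP10* at 1.36 and *MNP1* at 1.115.

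The RP median of 0.48 in post-diauxic cells lay below that after rapamycin, at 1.42 (1.21, 1.67), and tunicamycin, at 1.22 (1.21, 1.12), and near that with chlorpromazine, at 0.58 (0.71, 0.50). It was 0.13 (0.06, 0.21) in untreated cells, -0.28 (0.20, -0.88) with hydrogen peroxide and -0.07 (0.12, -0.29) after heat. The mitochondrial RP median, 0.41 in post-diauxic cells, was between 0.26 and 0.63 in the 6 other conditions. General stress genes, at -1.10 after the shift, had medians of -0.51 in untreated cells, -0.66 with rapamycin, -0.69 with chlorpromazine, -0.87 with tunicamycin and -0.51 after heat, and of 0.715 (1.00, 0.58) with hydrogen peroxide. The HSP70 and HSP90 chaperone list, at -0.38 after the shift, was below 0 with rapamycin (-0.43), chlorpromazine (-0.73) and tunicamycin (-0.32) and above 0 in untreated cells (0.34), with hydrogen peroxide (0.87) and after heat (0.89). The median of the post-diauxic markers was -1.02 (-0.78, -1.06) in post-diauxic cells and between -0.29 and -0.11 elsewhere. Differences between conditions were not tested, since each has 1 replicate.

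Single genes followed several patterns across conditions. *COX17* was higher by 2-fold in every condition, between 1.01 after heat and 2.36 in post-diauxic cells. *MEP2* was at 1.37 in post-diauxic cells and at 0.89 with rapamycin, and otherwise between -0.11 and 0.12. *SPS100*, at -3.09 in post-diauxic cells, was at -1.39 with chlorpromazine and between -0.69 and -0.07 in the others. *GCN3*, at -1.89 in post-diauxic cells, was between 0.03 and 0.43 in 5 conditions and at 1.325 with hydrogen peroxide. *MRH1*, at 0.11 in post-diauxic cells, was at -2.41 in untreated cells.

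**Figure D5:**
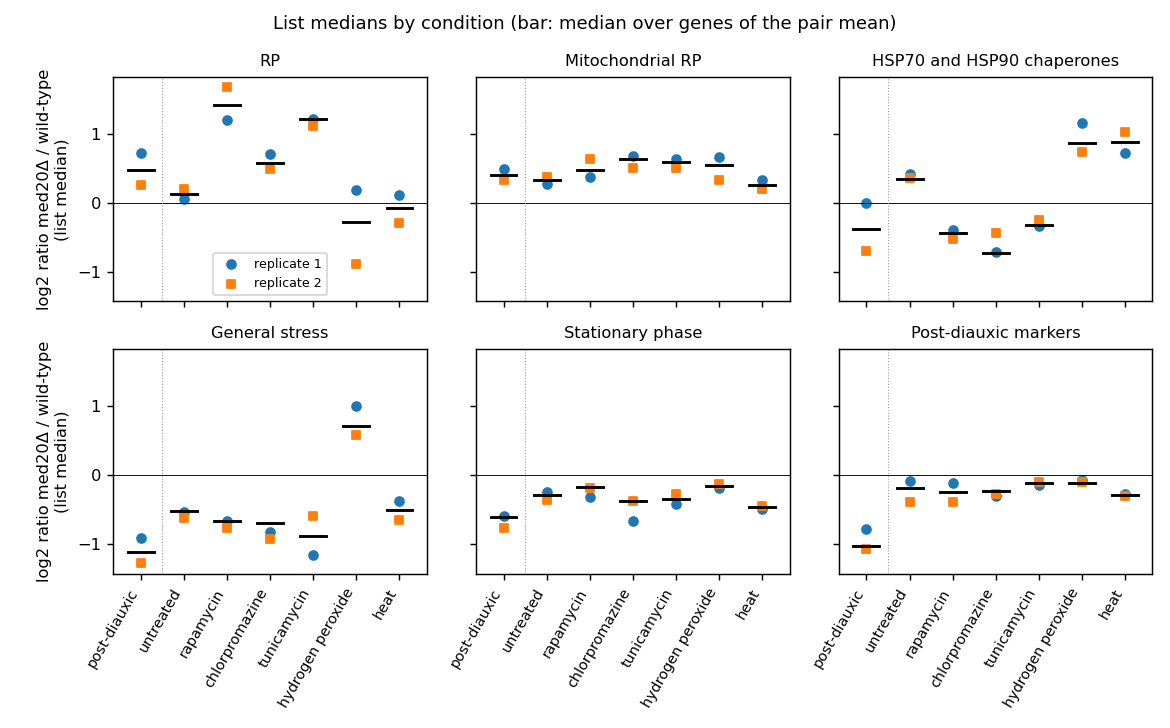
List medians of the log2 ratio of *med20Δ* to wild-type in post-diauxic cells and, right of the dotted line, in the 6 other conditions, for replicate 1 (circles), replicate 2 (squares) and the pair mean (bars). General stress genes are at -1.10 in post-diauxic cells and at 0.715 with hydrogen peroxide, and the mitochondrial RP median is above 0 on every array.

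The arrays share a dye pattern with other comparisons. The part of each gene's Cy5 over Cy3 ratio that does not reverse with the dyes correlated across genes between the post-diauxic pair and other pairs with r = -0.082 (untreated) to 0.696 (heat). With the gene-wise dye effect taken off, the correlation between the post-diauxic arrays was 0.508, and 24 genes were higher and 63 lower by 2-fold on both arrays.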

How the data were processed

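Two-color spotted arrays of yeast ORFs were analysed, as 24 arrays in 12 comparisons of 2 dye-reversed arrays each, and the text uses the *med20Δ* to wild-type comparisons. The deposited files hold, per spot, the mean and background intensity of each channel, a flag and log10 ratios. The authors' normalized ratio of each spot, a log10 value with the dye direction turned, was made by a procedure they give by citation, and the series table repeats it. Scanner and image software are not given in the sources used here. The authors' error, P-value and quality columns were not used.

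From the deposited intensities, background was corrected with normexp (offset 50) and ratios were normalized by loess within each array in limma 3.58.1 (R 4.3.3), leaving control and unnamed spots out of the fit and flagged spots out of the results. Ratios were then turned to *med20Δ* over wild-type in log2. Single-channel log2 values used quantile scaling of average intensity across the untreated and post-diauxic arrays. Tables were made with pandas 2.3.3. ORF names came from the RefSeq R64 gene table (5801 matched and 506 did not), and 3 list symbols had no match. A gene was measured when both arrays gave a ratio, and called at a mean of 2-fold. The 15 highest and 15 lowest called genes with 1 direction on both arrays, up to 4 members of each list with the largest ratios, *MED20* and its neighbors, Mediator genes, *RPL3* and *RPL28* were named. *SPG4*, *ADH2*, *ICL1*, *HXT5*, *DDR48*, *FES1*, *STI1*, *SSA3*, *PAM18* and *FRE7* were named after their values were seen. The gene lists and this comparison were chosen with earlier results of these data known. The lists of mitochondrial import, MICOS, copper and *HSP31* family genes were added after values had been seen. Dye effects were estimated per gene on the other comparisons. The calling step was tested on simulated data with normal noise of the same SD for every gene. The simulation held no gene-wise dye effect, so it does not cover the dye pattern of these arrays. Precision is limited by the number of arrays. Alternatives were the background correction, normalization, flags, dim spots, thresholds, each array left out and limma over all 24 arrays. Promoter sequences were not used here.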

Additional observations from a re-analysis of the deposited data

Results flagged for a closer look

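Some of the results had a ratio of *med20Δ* to wild-type of the opposite sign, on both arrays, in another condition. None of these differences was tested, since each condition has 1 replicate. With hydrogen peroxide, *CTT1* was at 2.63, *HSP30* at 2.56, *SSA4* at 1.76, *ALD3* at 1.45, *GCN3* at 1.325 and *HSP26* at 1.24, whereas each was lower in post-diauxic *med20Δ* cells. After heat, *BTN2* was at 1.61, *SSA4* at 1.30 and *HSP30* at 1.27. *SNU13*, which was higher in post-diauxic *med20Δ* cells, was at -1.635 with hydrogen peroxide. The general stress list had a median of 0.715 with hydrogen peroxide and of -1.10 in post-diauxic cells.

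The 396 ORF spots of the printing grid that were left out by their flags on both arrays carried signal. In the *med20Δ* channel 94.4% of them on replicate 1 and 97.0% on replicate 2 were brighter than the 95th percentile of the unnamed spots. With the flags ignored, their ratios correlated between the arrays with r = 0.263. On the mean, 8 of the 396 were higher by 2-fold and 3 lower, against 0.892% and 1.98% of the 5716 measured genes.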

How the results depend on the processing

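The count of genes that were higher by 2-fold was 51. It was 108 with local background subtracted, 78 with median centering in place of loess, 94 with the authors' normalized ratios, 312 at a threshold of 1.5-fold, 19 when 2-fold was required on both arrays, and 24 when it was required on both with the dye effect of other comparisons taken off. The count of genes that were lower was 113, and it was 387 at 1.5-fold, 59 on both arrays, and 63 on both with the dye effect taken off. With 1 array left out in turn, 41 to 190 genes were higher, the 190 on replicate 1 alone, and 125 to 205 were lower, the 205 on replicate 2 alone. The RP median of 0.48 stayed above 0 under each alternative run, at 0.27 to 0.73 on single arrays and 0.48 to 0.60 otherwise. The median of the markers in wild-type, 3.98 after the shift relative to untreated cells, was 4.70 without scaling between arrays, 4.64 with local background subtracted and 3.65 to 4.56 on single arrays. Loess within each grid, chosen after seeing the data, left 46 genes higher and 104 lower. Of 530 list medians under the alternatives, 452 moved by less than the SD of the arrays. The SD of single genes between the arrays was 0.403, and many list medians are smaller in size. Such a median could change sign within that SD, so the count does not show that list medians are stable. Of the 530 medians 32 changed sign, all in lists whose medians were within 0.2 of 0 or had opposite signs on the arrays. The 30 genes named as highest or lowest kept their direction in all 300 values and were under 2-fold in 4, which were *RPC10* (0.97), *HSP10* (0.99) and *MNP1* (0.83) without replicate 1 and *CTT1* (-0.96) without replicate 2.

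Taking the arrays of a pair as separate replicates, which the sources do not state, limma over all 24 arrays without a dye term gave 360 genes higher and 451 lower at an adjusted p under 0.05. With a term for the dye orientation, which takes up a dye effect per gene, it gave 495 higher and 605 lower. Such p-values measure only the spread between these arrays, which may be technical. With the dye term, 45 of the 51 genes that were higher by 2-fold and 112 of the 113 that were lower were among them. Of all 5716 genes, 1100 were. The 2-fold call and the limma coefficient use the same post-diauxic ratios, so this overlap is not separate evidence for the called genes. Ratios of the dimmest genes hardly correlated between the arrays (r = 0.057), and the cause was not tested.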
